A study of Mus musculus and Homo sapiens with 20 samples.

Results

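Mouse embryonic fibroblasts (MEF) treated with NVP-AUY922 for 16 h at 200 nM (the HSP90i group) were compared with MEF of the Control group, whose count columns are named for DMSO, the solvent. NVP-AUY922 occupies the ATP pocket of the HSP90 chaperones. The comparison used 6 of the 20 samples of the series, 3 Control and 3 HSP90i RNA-seq libraries, chosen by their titles and column names alone, and all 12340 of 43626 genes with adequate counts. The labels enter MEF under cell line and add no more, so strain, embryo age, passage and how the line was made are not stated in them. The same drug for 16 h at 50 nM in HPC-7, a mouse haematopoietic precursor line, with 3 Control and 3 HSP90i libraries, serves below for contrast. Whether the replicates came from separate cultures is not said in the labels. The p-values therefore speak to the scatter of these libraries alone, and that scatter may be technical.

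HSP90 is an abundant chaperone that completes the folding of a restricted set of client proteins, among them many protein kinases, steroid hormone receptors and the aryl hydrocarbon receptor. Its inhibition also releases the transcription factor HSF1 from repression, which turns on the genes of the cytosolic heat shock response. Fibroblasts build the extracellular matrix, pull on it through integrins and actin stress fibres, and divide in response to growth factors that signal through receptor kinases, so the lists described here follow matrix, adhesion, growth factor signalling, growth arrest, metabolism and protein folding in turn.

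The libraries held from 10542305 to 22872539 counts and the 2 groups stood apart as wholes. Pearson correlations of log2 CPM, the counts scaled to library size, were 0.988 to 0.995 between libraries of a group and 0.896 to 0.906 between groups. Of the 12340 genes tested, 9057 (73.4%) passed edgeR's quasi-likelihood test at a Benjamini-Hochberg adjusted p of 0.05, 4337 (35.1%) higher and 4720 (38.2%) lower in HSP90i, and these shares are the background for each count below. A change of at least 2-fold was called for 1379 genes (11.2%) upward and 1614 (13.1%) downward, the median log2 fold change over all genes was -0.01 and the median size was 0.50. Control 3 differed most from the other libraries of its group. Without it, 4661 genes were called higher and 4656 lower. Fibroblast markers summed to 25954 to 27236 CPM (scaled by TMM factors) in Control and 28967 to 30035 in HSP90i. By gene, 5 of 13 tested were called higher, Col1a1, Col1a2 and Col3a1 among them, and 6 lower (median log2 fold change -0.12). Endothelial, erythroid and pluripotent cell markers each summed to at most 1.45 CPM in every library, and epithelial markers summed to 7.0 to 7.71 CPM in Control and 18.9 to 19.7 in HSP90i, with 3 of 10 above 1 CPM and Krt5 and Cldn4 at 0 in all 6. Skeletal muscle markers summed to 6.75 to 8.34 CPM in Control and 3.34 to 4.0 in HSP90i, adipocyte markers to 18.5 to 20.3 and 25.3 to 28.5, leukocyte markers to 16.5 to 19.8 and 13.4 to 15.8, neural and glial markers to 64.4 to 71.0 and 55.5 to 66.0, and cartilage and bone markers to 211 to 224 and 222 to 247. The part of such cells in the results was not tested. In such bulk samples fewer cells of a type and less RNA per cell cannot be told apart.

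**Figure D1:**
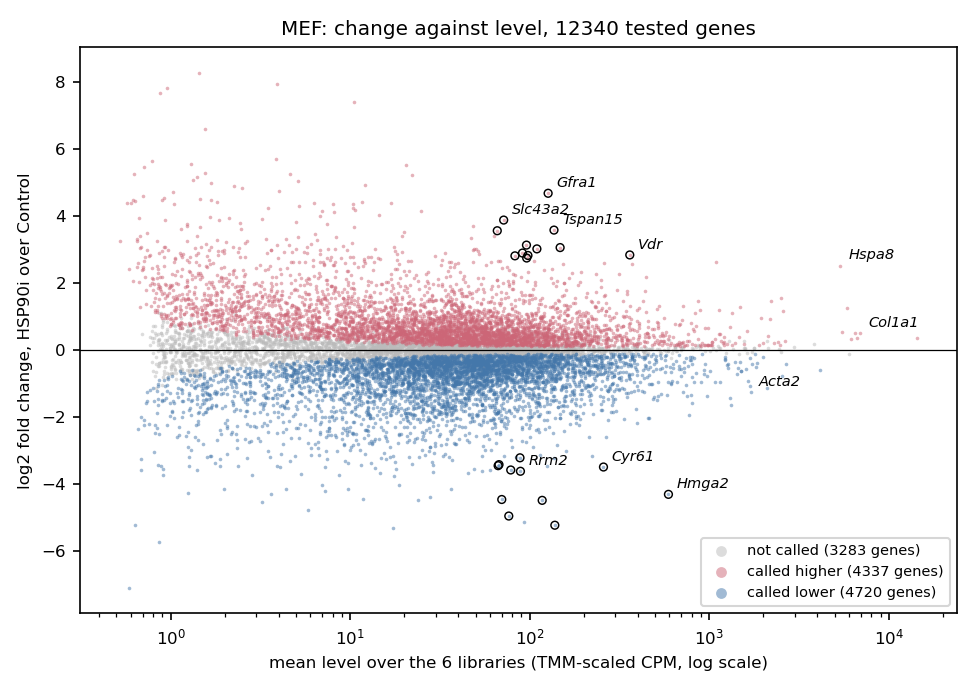
Each point is 1 of the 12340 tested genes, with its mean level over the 6 libraries (TMM-scaled CPM, log scale) on the x axis and the log2 fold change of HSP90i over Control on the y axis. Called genes lie on both sides at every level, and the 23 circled genes are among the largest changes in genes with a mean of at least 64 CPM.

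The promoters of a few genes are shown first, because the motifs they hold belong to the factors most often tied to the gene groups described below. Each stretch runs from 150 bases before the RefSeq transcription start to the base before it, 5′ to 3′ on the gene's own strand (RefSeq, GRCm38.p6). Capitals mark matches, on either strand, to the motif named just before, and other motifs in the same stretch stay in lower case. The heat shock element core GAANNTTC stands in the promoters of Hspb1, a small heat shock protein (chr5:135887769-135887918, plus strand), and Hspe1, the mitochondrial chaperonin cofactor (chr1:55087998-55088147, plus strand). Both genes were called higher.
Hspb1: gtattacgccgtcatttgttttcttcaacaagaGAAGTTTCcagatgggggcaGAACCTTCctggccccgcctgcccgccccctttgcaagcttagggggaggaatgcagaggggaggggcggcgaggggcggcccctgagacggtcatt
Hspe1: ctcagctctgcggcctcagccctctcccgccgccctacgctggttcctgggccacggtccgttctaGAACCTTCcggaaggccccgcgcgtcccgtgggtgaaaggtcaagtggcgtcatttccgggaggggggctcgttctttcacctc
The forkhead site GTAAACA stands in the promoters of Txnip, which restrains glucose uptake (chr3:96557807-96557956, plus strand), and Hbp1, a repressor of cell cycle genes (chr12:31950246-31950395, minus strand). Both were also called higher.
Txnip: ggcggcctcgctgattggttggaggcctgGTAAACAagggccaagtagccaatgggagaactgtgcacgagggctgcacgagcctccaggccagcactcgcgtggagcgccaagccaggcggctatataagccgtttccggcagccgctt
Hbp1: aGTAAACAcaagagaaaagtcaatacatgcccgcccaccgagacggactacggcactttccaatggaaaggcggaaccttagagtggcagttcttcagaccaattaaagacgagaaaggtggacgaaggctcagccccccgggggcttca
The CArG box, bound by serum response factor, stands 2 times before Srf, the gene of that factor, (chr17:46556163-46556312, minus strand) and once before Actg1, a cytoplasmic actin (chr11:120348496-120348645, minus strand), both called lower.
Srf: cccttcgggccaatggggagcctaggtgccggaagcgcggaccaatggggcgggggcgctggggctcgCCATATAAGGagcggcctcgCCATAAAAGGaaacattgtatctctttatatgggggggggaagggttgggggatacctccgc
Actg1: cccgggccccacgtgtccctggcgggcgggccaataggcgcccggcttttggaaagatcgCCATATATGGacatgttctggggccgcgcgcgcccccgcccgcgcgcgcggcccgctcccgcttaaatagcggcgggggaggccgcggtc
Cell cycle genes called lower hold other motifs. The motif TTTGAA, the cell cycle homology region, occurs 2 times before Cdk1, the mitotic kinase (chr10:69352913-69353062, minus strand), and the E2F motif TTTGGCGC or TTTCGCGC has 3 matches, 2 of them overlapping, before Mcm6, a subunit of the replicative helicase (chr1:128359706-128359855, minus strand).
Cdk1: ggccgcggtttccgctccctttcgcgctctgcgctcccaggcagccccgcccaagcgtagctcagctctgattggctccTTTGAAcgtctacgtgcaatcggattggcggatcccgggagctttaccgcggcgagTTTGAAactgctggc
Mcm6: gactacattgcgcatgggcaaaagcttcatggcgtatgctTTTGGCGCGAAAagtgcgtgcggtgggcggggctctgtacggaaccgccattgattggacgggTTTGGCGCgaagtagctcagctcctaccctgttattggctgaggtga
The E-box CACGTG stands before Atp6v1a, a subunit of the proton pump of lysosomes (chr16:44139260-44139409, minus strand), and Ctsf, a lysosomal protease (chr19:4855015-4855164, plus strand), both called higher.
Atp6v1a: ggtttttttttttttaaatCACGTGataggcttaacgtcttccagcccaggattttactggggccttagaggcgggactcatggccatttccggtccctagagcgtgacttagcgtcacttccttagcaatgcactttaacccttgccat
Ctsf: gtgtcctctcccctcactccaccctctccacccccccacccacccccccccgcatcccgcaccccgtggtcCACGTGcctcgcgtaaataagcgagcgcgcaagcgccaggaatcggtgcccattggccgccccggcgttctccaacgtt

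The same motifs were counted on both strands in windows of 250 bases before to 50 after the start, 32851 windows of 27025 genes in all, of which 12062 belonged to 9410 tested genes. A gene with several starts has several windows. TTTGAA occurred in 17.9% of all windows and 11.9% of those of tested genes, and in 66.1% of windows of the mitosis list, where the 34 genes that held it were all called lower, as were 59 of all 60 members tested. The E2F motif was in 0.813% of all windows, 1.54% of those of tested genes and 26.0% of the replication list, with 12 of its 13 genes called lower, as were 49 of all 50 members. CArG boxes were in 1.63% of all windows, 1.34% of those of tested genes and 29.2% of the contractile list. There, 6 of 6 genes with the box were lower, against 16 of 21 members in all. GTAAACA was in 3.65% of all windows, 2.47% of those of tested genes and 18.2% of the list of FOXO-linked genes. Of the 6 listed genes with this motif 5 were higher, against 28 of 37 members. GAANNTTC was in 7.86% of all windows, 5.57% of those of tested genes and 27.9% of the heat shock list. Of the 15 listed genes with this motif 11 were higher and 3 lower, against 28 and 17 of 54 members. CACGTG was in 7.15% of all windows, 9.95% of those of tested genes and 28.3% of the lysosome list. Of the 15 listed genes with this motif 10 were higher and 2 lower, against 40 and 9 of 57 members. CACGTG was also in 33.3% of windows of the aminoacyl-tRNA synthetases, a list that fell, and in 21.2% of the FOXO-linked list. Of other motifs counted, GGAATG, named for TEAD factors, was in 29.2% of the contractile list and 12.1% of windows of tested genes. CCAAT was in 76.8% of the mitosis list and 38.1% of windows of tested genes. Across the 1328 windows of genes at least 2-fold higher and the 1527 of genes at least 2-fold lower, shares lay closer to those of all tested genes, with TTTGAA in 10.1% and 16.2% and the E2F motif in 0.527% and 2.36%. A match describes the letters in the window and is no sign of binding. Lists and motifs were paired by factor or function, so an excess in a list is no result about the drug.

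**Figure D2:**
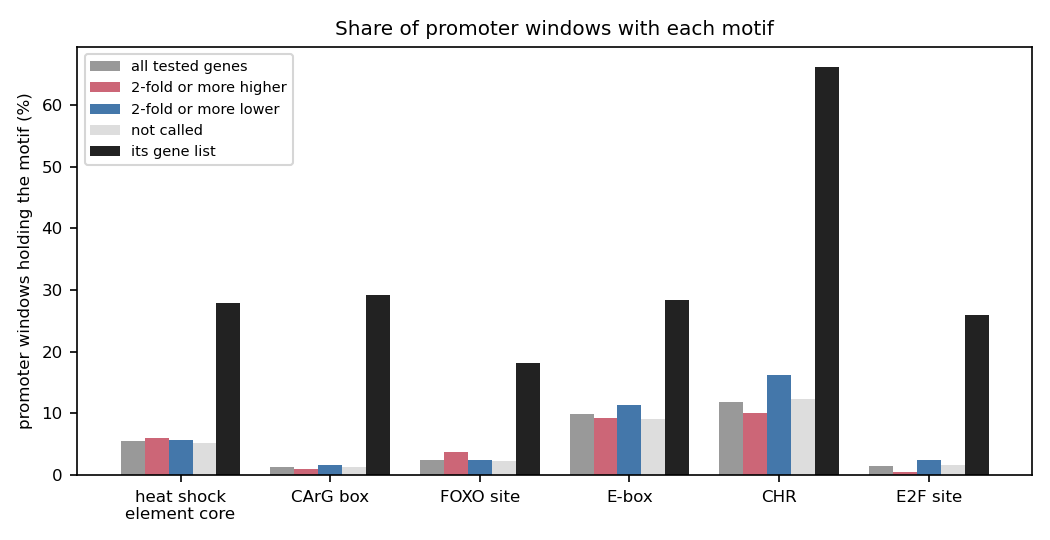
Bars give the percentage of promoter windows that hold each motif among all tested genes, genes at least 2-fold higher, genes at least 2-fold lower, genes not called, and the gene list named for that motif's factor or function (heat shock, contractile, FOXO-linked, lysosome, mitosis and replication lists, left to right). The black bar of the lists exceeds the grey bar of all tested genes for all 6 motifs, which can follow from the pairing of list and motif by factor or function.

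Of the 12 largest increases among genes with a mean of at least 64 CPM, Gfra1, the receptor subunit for the neurotrophic factor GDNF, measured 9.16, 10.3 and 9.04 CPM in the Control libraries and 234, 247 and 251 CPM in the HSP90i libraries (log2 fold change 4.69 ± 0.07, adjusted p = 2.77e-09). Slc43a2, a carrier of branched-chain and other neutral amino acids, measured 10.1, 7.86 and 8.85 CPM in the Control libraries and 136, 137 and 130.2 CPM in the HSP90i libraries (log2 3.89 ± 0.09, adjusted p = 9.74e-09). No overlap between the groups was a condition of this choice. The others were the tetraspanin Tspan15, the adhesion receptor Igdcc4, Txnip, the p53-linked autophagy gene Trp53inp1, Syt13, the RAB regulator Tbc1d16, the vitamin D receptor Vdr, the nucleotidase Nt5c3, the mitochondrial carrier Slc25a25 and Col5a3, at log2 fold changes from 2.75 (Col5a3) to 3.59 (Tspan15). Trp53inp1 had the widest Control libraries of the 12, at 32.9, 40.6 and 20.9 CPM.

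Of the 12 largest decreases at such levels, Hmga2, a chromatin protein of embryonic and proliferating mesenchyme, measured 1035, 1201 and 1151 CPM in the Control libraries and 55.2, 60.0 and 55.2 CPM in the HSP90i libraries (log2 fold change -4.31 ± 0.07, adjusted p = 4.71e-09). Here too, no overlap between the groups was a condition of the choice. The matricellular protein Cyr61, the decoy receptor Tnfrsf11b (osteoprotegerin), the nucleotide enzymes Rrm2 and Tk1, the cytokinesis gene Iqgap3 and the separase Espl1 fell with log2 fold changes from -3.62 (Rrm2) to -3.22 (Espl1). By counts rather than by fold, and so weighted towards long and abundant transcripts, the largest losses included the filament and actin-binding genes Vim, Flna, Acta2, Tpm1, Lgals1 and Actb, and the largest gains Hspa8, Hsp90ab1, Eef1a1, Hsp90b1, Col1a1 and mt-Co1. The log2 fold change of mt-Co1, 0.50 ± 0.12, was 0.32 without HSP90i 3.

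**Figure D3:**
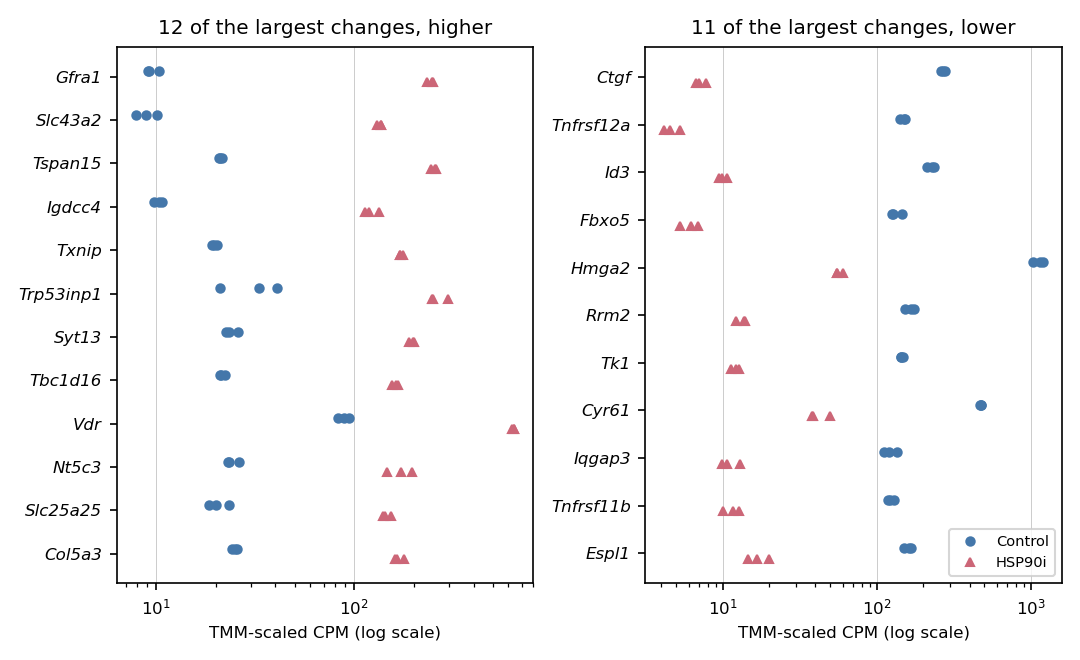
TMM-scaled CPM (log scale) of the 12 largest increases and 11 of the 12 largest decreases among genes with a mean of at least 64 CPM, with circles for the 3 Control and triangles for the 3 HSP90i libraries. By the rule that chose the 23 genes drawn, their groups do not overlap, a condition that 9407 of 12340 genes met (76.2%), 37.0% with HSP90i above and 39.3% with HSP90i below.

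Genes of the interstitial collagens mostly rose, and their share of TMM-scaled counts went from 1.98% ± 0.0403 to 2.73% ± 0.0449 (SD, n = 3 each). Of 16 tested collagens, 10 were called higher and 5 lower (median log2 fold change 0.53). Col3a1, a fibrillar collagen of loose connective tissue, measured 1536, 1636 and 1598 CPM in the Control libraries and 3437, 3589 and 3619 CPM in the HSP90i libraries (log2 1.16 ± 0.04). Col11a1 and Col5a3, chains that start and limit the width of fibrils, rose further, with log2 fold changes of 2.19 ± 0.06 and 2.75 ± 0.06. The 5 that fell were led by Col8a2, Col6a3, Col12a1 and Col16a1, with log2 fold changes between -0.82 (Col8a2) and -0.50 (Col16a1). The chains of collagen VI thus parted, with log2 fold changes of 0.58 ± 0.04 for Col6a1, 0.70 ± 0.04 for Col6a2 and -0.52 ± 0.05 for Col6a3.

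Genes that process and crosslink collagen were divided, with 12 of 23 higher and 8 lower. Some that act inside the cell rose, with log2 fold changes of 1.46 ± 0.05 for Plod2, 0.98 ± 0.05 for P4ha2 and 0.95 ± 0.04 for Serpinh1, the collagen chaperone HSP47, while the lysyl hydroxylase Plod3 and the hydroxylase partner Crtap fell (-0.26 ± 0.04 and -0.54 ± 0.07). Bmp1, a procollagen proteinase that acts outside the cell, rose from 98.8 ± 4.63 to 229.5 ± 5.19 CPM (log2 1.22 ± 0.05). Lysyl oxidases, which crosslink collagen and elastin outside the cell, fell, with 4 of 5 called lower and 0 higher under each of the 4 scalings tried. Lox measured 1344, 1533 and 1362 CPM in the Control libraries and 485, 547 and 591 CPM in the HSP90i libraries (log2 -1.39 ± 0.08) and its groups did not overlap.

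Basement membrane genes rose in 12 and fell in 5 of 19. All 4 tested chains of collagen IV, the mesh of basement membranes, were called higher (0.38 (Col4a5) to 0.68 (Col4a2) on the log2 scale), with larger log2 increases for the network proteins Nid2 (2.03 ± 0.06) and Col18a1 (1.89 ± 0.05) and the laminin chain Lama4 (1.57 ± 0.06). Among 36 elastic, proteoglycan and matricellular genes, 18 rose and 11 fell. The small proteoglycans Dcn and Ogn and the fibrillin Fbn2, typical of developing tissue, rose by log2 1.39 ± 0.16, 1.46 ± 0.36 and 1.96 ± 0.05, whereas Fbn1, the fibrillin of adult elastic tissue, Thbs1 and Tnc, which mark wounds and stretched matrix, fell with log2 fold changes of -1.02 ± 0.05, -1.42 ± 0.06 and -1.22 ± 0.07.

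IGF binding proteins, which hold insulin-like growth factors outside the cell, rose in 5 of 6 tested members and Igfbp7 fell. Igfbp4 measured 77.4, 66.4 and 66.8 CPM in the Control libraries and 246, 246 and 249 CPM in the HSP90i libraries (log2 1.81 ± 0.07), and Igfbp2 and Igfbp5 rose by 1.29 ± 0.05 and 2.89 ± 0.22 on the log2 scale. In the plasminogen system the activators exchanged. The urokinase Plau fell from 111 ± 1.71 to 32.4 ± 3.42 CPM (SD, n = 3 each) and its receptor Plaur from 96.8 ± 5.05 to 13.1 ± 1.01, while tissue plasminogen activator, Plat, rose from 74.9 ± 3.83 to 304 ± 6.72 (log2 fold changes -1.78 ± 0.08, -2.88 ± 0.08 and 2.02 ± 0.05). Of 22 proteases and inhibitors in all, 11 rose and 8 fell, among them the aggrecanase Adamts4 (2.61 ± 0.13) and the inhibitor Timp3 (-1.96 ± 0.07) on the log2 scale. Their summed share of counts went from 0.483% to 0.351%.

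Adhesion and actin genes fell more often than they rose. Of 33 integrin and focal adhesion genes, 17 were lower and 10 higher (median log2 fold change -0.41), and their summed share of counts went from 1.07% to 0.706%. Actn1, which bundles actin at adhesions, measured 589, 610.2 and 604 CPM in the Control libraries and 179, 181 and 172 CPM in the HSP90i libraries (log2 -1.76 ± 0.04). The adaptors Vcl, Zyx, Ilk and Ptk2 fell with log2 fold changes of -0.96 ± 0.07, -0.69 ± 0.04, -0.82 ± 0.05 and -0.81 ± 0.06. Of the talins, which link integrin to actin, Tln1 fell from 631 ± 10.1 to 426 ± 3.88 CPM and Tln2 rose from 90.7 ± 0.901 to 180.1 ± 9.91 (log2 -0.57 ± 0.04 and 0.99 ± 0.05). Integrin chains divided too, also among those that share a ligand. Of chains that bind fibronectin, Itga5, Itgav and Itgb1 fell (log2 -0.67 ± 0.06, -0.64 ± 0.06 and -0.41 ± 0.06) and Itga4 and Itga8 rose (0.85 ± 0.30 and 0.70 ± 0.20). Both of these calls were lost with DESeq2 and without Control 1, with log2 fold changes of 0.60 and 0.55 in the latter. That of Itga4 was also lost without Control 2, HSP90i 2 or HSP90i 3. Of the collagen receptor chains, Itga10 and Itga11 rose (1.56 ± 0.15 and 0.50 ± 0.08, log2), Itga2 fell (-2.33 ± 0.26) and Itga1, at 22.9 ± 4.91 and 26.4 ± 2.17 CPM, was not called.

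Genes that serum response factor is known to drive were lower in 16 of 21 and higher in 1, Cnn1 (0.43 ± 0.07, log2). Tpm1 measured 1888, 2047 and 2083 CPM in the Control libraries and 621, 691 and 617 CPM in the HSP90i libraries and Acta2, the smooth muscle actin of activated fibroblasts, 2365, 2381 and 2449 CPM in the Control libraries and 974, 1019 and 1032 CPM in the HSP90i libraries (log2 fold changes -1.64 ± 0.06 and -1.25 ± 0.04). Every HSP90i library of both lay below every Control library. Srf itself fell (log2 -0.81 ± 0.10), as did its coactivator Mkl1 (-0.57 ± 0.05), and Myh9, a non-muscle myosin heavy chain, measured 1530.3 ± 57.2 and 1584 ± 131 CPM and was not called. Among 24 targets and parts of the YAP and TEAD pathway, 13 were lower and 6 higher, and the factors themselves moved apart: Tead4 fell from 47.2 ± 2.95 to 8.63 ± 1.0 CPM, Tead1 rose from 322 ± 7.02 to 586 ± 37.9, and the coactivator Wwtr1 (TAZ) rose by 1.02 ± 0.05 (log2). Tubulins, the other main cytoskeletal polymer, were lower in 7 of 13 and higher in 3, with Tuba1b at -1.49 ± 0.05 and Tubb6 at -1.63 ± 0.05 (log2).

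**Figure D4:**
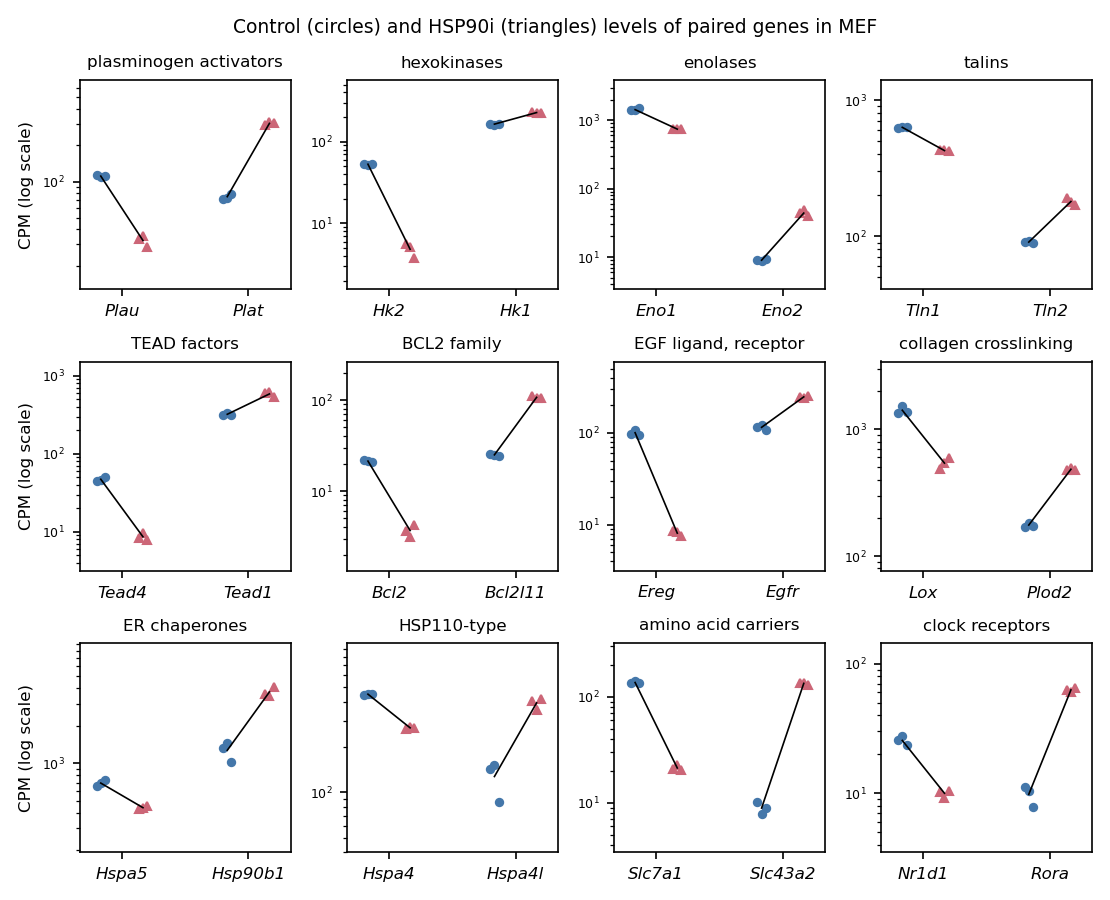
Levels (TMM-scaled CPM, log scale) of pairs of related genes that moved apart, with circles for the 3 Control libraries, triangles for the 3 HSP90i libraries and a line joining the group means. In each of the 12 panels the left gene fell and the right gene rose, Tln1 and Tln2 among them. The pairs were chosen after the values were seen.

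Growth factor genes fell more often than they rose, and receptor genes did the reverse. Of 46 growth factor and cytokine genes, 24 were lower and 15 higher, 16 and 8 of them by 2-fold or more (median log2 fold change -0.53). Of 32 receptor tyrosine kinases, 18 were higher and 9 lower, 11 and 4 by 2-fold or more (median 0.47). The EGF family shows both sides. Its ligand epiregulin, Ereg, measured 97.2, 109 and 95.1 CPM in the Control libraries and 8.50, 8.27 and 7.48 CPM in the HSP90i libraries (log2 -3.62 ± 0.08), and 4 of 5 tested ligands fell, Hbegf and Nrg1 with log2 fold changes of -2.24 ± 0.07 and -1.31 ± 0.11. The receptor Egfr measured 117, 121 and 107 CPM in the Control libraries and 248, 241 and 251 CPM in the HSP90i libraries (log2 1.10 ± 0.05), with no overlap.

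Other ligands that fell were Grem1, a BMP antagonist, at 646 ± 115 against 142 ± 10.2 CPM (Control against HSP90i, log2 -2.19 ± 0.12), the angiogenic factor Vegfa (-1.75 ± 0.05), the macrophage factor Csf1 (-1.16 ± 0.05), Fgf7 and Fgf10, which fibroblasts supply to epithelia (-1.15 ± 0.24 and -1.30 ± 0.08), and the chemokine Cxcl12 (-1.03 ± 0.05). Those that rose included Igf1 (1.41 ± 0.20), Igf2 (0.81 ± 0.09), Angpt1 (1.45 ± 0.29), Tgfb2 (1.60 ± 0.07) and the activin chain Inhbb (2.07 ± 0.11), all as log2 fold changes. Among receptors, Mertk, which recognises dying cells, rose from 0.629 ± 0.140 to 9.39 ± 0.713 CPM (log2 3.82 ± 0.18) and Fgfr2 from 48.1 ± 1.55 to 135 ± 4.31 (log2 1.49 ± 0.05), while Pdgfrb fell (log2 -0.66 ± 0.05), Pdgfra rose (log2 0.45 ± 0.05) and Fgfr1, at 699.6 ± 20.7 and 731 ± 41.7 CPM, was not called. Mertk passed the filter on counts only through HSP90i, where it was high.

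Genes listed for the ERK pathway and its feedback, not all of them brakes, mostly fell. Of 28, 21 were lower, 17 by 2-fold or more, and 4 rose (median log2 fold change -1.39). Their summed share of counts nevertheless went from 0.256% to 0.412%, and Il1rl1, the most abundant of them by counts, rose. Etv5, an ETS factor induced by FGF and ERK signalling, measured 49.2, 53.1 and 57.0 CPM in the Control libraries and 2.66, 2.97 and 1.78 CPM in the HSP90i libraries (log2 -4.40 ± 0.14). Dusp6, the phosphatase that inactivates ERK, measured 48.9, 49.3 and 58.9 CPM in the Control libraries and 6.96, 8.64 and 6.05 CPM in the HSP90i libraries (log2 -2.86 ± 0.13). All 3 PEA3 factors and 6 of 7 Sprouty and SPRED genes fell and none rose, under each of the 4 scalings. Dusp1, a stress-induced phosphatase that acts mainly on p38 and JNK, rose from 75.8 ± 6.39 to 185 ± 12.6 CPM (log2 1.28 ± 0.08), and Il1rl1, the IL-33 receptor, from 1184 ± 69.2 to 3260.3 ± 191 (log2 1.46 ± 0.06). Of the 20 dual specificity phosphatases tested, 11 fell and 5 rose.

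Genes of BMP and TGF-beta signalling fell more often than they rose, and the receptors were divided. Of 37 genes, 22 were lower and 12 higher (median -0.58, log2). The 4 ID proteins, inhibitors of differentiation factors and direct BMP targets, all fell: Id1 measured 115, 103 and 116 CPM in the Control libraries and 10.5, 10.1 and 6.59 CPM in the HSP90i libraries (log2 -3.60 ± 0.14) and Id2 fell (log2 fold change -3.02 ± 0.11). Inhibitory SMADs fell with them, Smad7 from 32.6 ± 1.10 to 3.21 ± 0.705 CPM and Smad6 from 50.1 ± 4.06 to 15.8 ± 1.84 (log2 -3.34 ± 0.12 and -1.67 ± 0.10). Smad3, which carries the TGF-beta signal, was the 1 of 8 SMADs that rose, at 84.0, 83.5 and 83.0 CPM in the Control libraries and 207, 201 and 194 CPM in the HSP90i libraries (log2 1.27 ± 0.05). Of the receptors, Tgfbr2 and Bmpr1a rose by 0.53 ± 0.04 and 0.78 ± 0.10 on the log2 scale, Acvr1 fell (-0.85 ± 0.07), and Tgfbr1, at 51.1 ± 5.31 and 51.9 ± 2.69 CPM, was not called.

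WNT pathway genes were mixed, with 19 of 37 higher and 14 lower. Wnt4, a ligand of kidney and reproductive tract development, went from 0.308, 0.189 and 0.380 to 10.8, 9.85 and 9.26 CPM (log2 5.04 ± 0.21). It passed the filter on counts only through HSP90i, so its separation follows in part from that choice. The coreceptors Lrp6 and Lgr4 rose by 0.98 ± 0.04 and 1.77 ± 0.06. The ligand Wnt2 and the T cell factor Tcf7 fell (log2 fold changes -2.26 ± 0.20 and -1.86 ± 0.21). In the Notch pathway, the receptors Notch3 (10.3, 8.71 and 8.85 CPM in the Control libraries and 53.3, 57.6 and 53.8 CPM in the HSP90i libraries) and Notch2 (log2 1.25 ± 0.08) and the ligand Jag1 (log2 1.12 ± 0.09) rose, while the target Hes1 fell from 12.7 ± 0.643 to 1.98 ± 0.621 CPM and the modifier Lfng from 15.6 ± 0.420 to 2.46 ± 0.416 (log2 2.54 ± 0.08 for Notch3, -2.60 ± 0.18 for Hes1 and -2.66 ± 0.12 for Lfng). In the Hedgehog pathway Ptch1, both its receptor and its target, at 35.0 ± 1.31 and 32.3 ± 2.34 CPM, was not called.

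Guidance molecules, which steer axons and vessels and are also made by fibroblasts, rose in 25 and fell in 12 of 46, with 16 and 4 past 2-fold. Semaphorins were higher in 10 of 17 and lower in 4 (3 under 1 or more other scalings), and their receptors, the plexins, in 5 and 1 of 8. Sema3c, a secreted semaphorin, measured 184, 191 and 119 CPM in the Control libraries and 523, 488 and 582 CPM in the HSP90i libraries (log2 1.68 ± 0.16). The plexin Plxna2 measured 59.0, 60.3 and 62.4 CPM in the Control libraries and 273, 269.8 and 264 CPM in the HSP90i libraries (log2 2.15 ± 0.05). The groups did not overlap for either gene. Ephrins Efnb1 and Efnb2 rose by 1.54 ± 0.06 and 1.36 ± 0.05, and Unc5b, a netrin receptor, fell (log2 fold change -2.0 ± 0.05).

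Inflammatory genes that depend on NF-kB were mostly lower and interferon-stimulated genes mostly higher. Of 26 chemokine and NF-kB genes, 19 fell, 10 by 2-fold or more, and 2 rose (median log2 fold change -0.66), and their share of counts went from 0.151% ± 0.00486 to 0.0756% ± 0.00120. The monocyte chemokine Ccl2 measured 66.3, 63.2 and 52.6 CPM in the Control libraries and 7.83, 5.85 and 7.30 CPM in the HSP90i libraries (log2 -3.10 ± 0.13). Ccl7, the inducible cyclooxygenase Ptgs2 and the feedback inhibitors Tnfaip3 and Nfkbia fell (log2 fold changes -2.98 ± 0.13, -1.84 ± 0.14, -1.15 ± 0.07 and -0.62 ± 0.10). Icam1, an adhesion molecule usually grouped with these genes, rose from 0.246 ± 0.144 to 1.08 ± 0.121 CPM (log2 2.04 ± 0.38), and it was tested only because its HSP90i counts met the filter. Of the subunits, Relb and Nfkb2 fell (-0.96 ± 0.08 and -0.86 ± 0.05), and Nfkb1, at 128 ± 5.56 and 120.3 ± 1.5 CPM, was not called.

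Of 25 interferon-stimulated genes, 15 rose, 13 of them by 2-fold or more, and 3 fell (median log2 fold change 1.05). Ddx58, which encodes the RNA sensor RIG-I, measured 29.0, 28.6 and 27.5 CPM in the Control libraries and 109.7, 126 and 107 CPM in the HSP90i libraries (log2 2.01 ± 0.07), and the peptide transporter Tap1 rose from 1.99 ± 0.807 to 8.70 ± 0.217 CPM (log2 2.14 ± 0.21). The nucleotide kinase Cmpk2 and the factor Irf7 rose by 2.99 ± 0.27 and 1.63 ± 0.24 on the log2 scale. Isg15 and Ifit3, classical readouts of interferon, measured 1.70 ± 0.294 against 1.71 ± 0.362 and 7.70 ± 1.39 against 8.34 ± 1.01 CPM and were not called, and Ifit2 fell (log2 -1.20 ± 0.10). In the complement and antigen presentation list, 11 of 15 rose and 1 fell. The class I genes H2-D1 and H2-T23, the light chain B2m and the loading factor Tapbp rose by 0.51 ± 0.06, 1.34 ± 0.08, 0.44 ± 0.06 and 0.89 ± 0.05 on the log2 scale, and reads of class I genes can be shared between near-identical members. Clu, an extracellular chaperone, rose from 4.26 ± 0.812 to 32.3 ± 2.07 CPM (log2 2.86 ± 0.13).

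Genes linked to quiescence mostly rose. Of 37 genes linked to FOXO factors, growth arrest and nutrient shortage, 28 rose, 17 by 2-fold or more, and 7 fell, 4 by 2-fold or more (median log2 fold change 0.95). Fbxo32, the ubiquitin ligase atrogin-1 of wasting muscle and a FOXO target, measured 8.81, 7.86 and 8.47 CPM in the Control libraries and 92.1, 80.4 and 84.7 CPM in the HSP90i libraries (log2 3.35 ± 0.08). Txnip measured 19, 20.4 and 19.5 CPM in the Control libraries and 171, 169 and 177 CPM in the HSP90i libraries (log2 3.14 ± 0.05). Every HSP90i library of both lay far above the Control range. Ccng2, Tob1, Pik3ip1 and the 3 sestrins, which restrain growth signalling, rose by 1.92 ± 0.07, 1.74 ± 0.06, 1.80 ± 0.06 and, for Sesn1, Sesn2 and Sesn3, 1.17 ± 0.05, 1.82 ± 0.05 and 1.63 ± 0.05. Of the FOXO factors, Foxo4 and Foxo6 rose (0.73 ± 0.06 and 2.40 ± 0.39) and Foxo3 fell (-0.34 ± 0.07) on the log2 scale. The members that fell were led by Klf2, Klf6, Cited2 and Zfp36l2, at log2 fold changes from -4.44 (Klf2) to -1.58 (Zfp36l2).

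Replication and division genes fell in 49 of 50 and 59 of 60 tested. The list of cyclin-dependent kinases, D cyclins, their inhibitors and RB and E2F proteins was divided, 8 of 21 higher and 11 lower. The p21 gene Cdkn1a measured 61.5, 51.3 and 49.1 CPM in the Control libraries and 164, 164 and 155 CPM in the HSP90i libraries (log2 1.57 ± 0.08). Cdkn1c, the imprinted p57 gene, had at most 2 counts in any Control library and reached 2.61, 2.14 and 3.11 CPM in HSP90i, through which alone it passed the filter on counts. Cdkn1b (p27) and Rb1 rose less, by 0.39 ± 0.06 and 0.93 ± 0.17 on the log2 scale. The inhibitors Cdkn2c and Cdkn2d fell (log2 fold changes -0.63 ± 0.07 and -0.81 ± 0.09). Cyclin D1, Ccnd1, measured 519, 520.1 and 577 CPM in the Control libraries and 130.2, 124 and 134 CPM in the HSP90i libraries (log2 -2.06 ± 0.06), while the related Ccnd2 and Ccnd3 rose by 0.36 ± 0.05 and 0.62 ± 0.06. The helicase subunits Mcm2 to Mcm7 all fell, with log2 fold changes from -1.67 (Mcm3) to -1.03 (Mcm7), and of 29 kinesins 16 fell and 8 rose, the mitotic motors Kif11 and Kif23 (-2.83 ± 0.16 and -2.61 ± 0.11) among the former and Kif13b, a transport motor, among the latter (2.64 ± 0.08). Cdk1 measured 393 ± 20.8 against 113 ± 4.80 CPM (log2 -1.80 ± 0.06). The proliferation marker Mki67 measured 522, 466 and 119 CPM in the Control libraries and 80.8, 28.1 and 73.6 CPM in the HSP90i libraries (log2 -2.59 ± 0.55), with Control 3 far below the other Control libraries and yet above every HSP90i library.

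Of 27 p53 targets and partners, 17 rose and 6 fell, 10 and 1 by 2-fold or more (median log2 fold change 0.58). Ccng1, a direct target, measured 301, 332 and 269 CPM in the Control libraries and 674, 743 and 818 CPM in the HSP90i libraries (log2 1.31 ± 0.09). Mdm2 and Zmat3 rose by 0.65 ± 0.04 and 0.58 ± 0.07, Trp53 itself fell (log2 fold change -0.63 ± 0.06), and Bax, at 111 ± 9.18 and 117 ± 8.87 CPM, was not called. Among BH3-only genes, which start mitochondrial apoptosis, 5 of 6 rose, namely Bcl2l11 (BIM), Bmf, Pmaip1, Bbc3 and Bad, and Bid fell. Bcl2l11 measured 25.8, 24.8 and 24.4 CPM in the Control libraries and 111, 104 and 106 CPM in the HSP90i libraries (log2 2.10 ± 0.05). The protective gene Bcl2 fell from 21.3 ± 0.668 to 3.67 ± 0.512 CPM and Mcl1 from 209 ± 5.57 to 150.4 ± 3.13 (log2 -2.54 ± 0.11 and -0.47 ± 0.04), and Bcl2l1, at 71.7 ± 0.524 and 69.1 ± 3.53, was not called.

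Imprinted genes, many of which set embryonic growth, were higher in 18 of 24 and lower in 4, 10 and 1 of them past 2-fold (median log2 fold change 0.80). Peg10 measured 101, 113 and 108 CPM in the Control libraries and 661, 662 and 574 CPM in the HSP90i libraries (log2 2.56 ± 0.07), Igf2r, the receptor that clears IGF2, 163, 159.7 and 151 CPM in the Control libraries and 536, 567 and 513 CPM in the HSP90i libraries (log2 1.77 ± 0.05), and Plagl1 rose by 2.14 ± 0.18. The groups did not overlap in these genes. Mest, a further paternally expressed gene, went from at most 4 counts a library, 0.176, 0.379 and 0.190 CPM, to 3.62, 2.79 and 4.0 CPM, while Peg12 fell (log2 -2.52 ± 0.29). Mest, like the imprinted Cdkn1c, passed the filter on counts only through HSP90i. Grb10, a growth-restraining adaptor, was among the 4 that fell, from 721 ± 34.3 to 539 ± 18.0 CPM (log2 -0.42 ± 0.05). The long noncoding RNAs of the Dlk1 domain, Meg3 and Rian, rose by 1.28 ± 0.08 and 1.03 ± 0.06 on the log2 scale, whereas Dlk1, at 2.38 ± 0.336 and 2.35 ± 0.386 CPM, was not called.

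**Figure D5:**
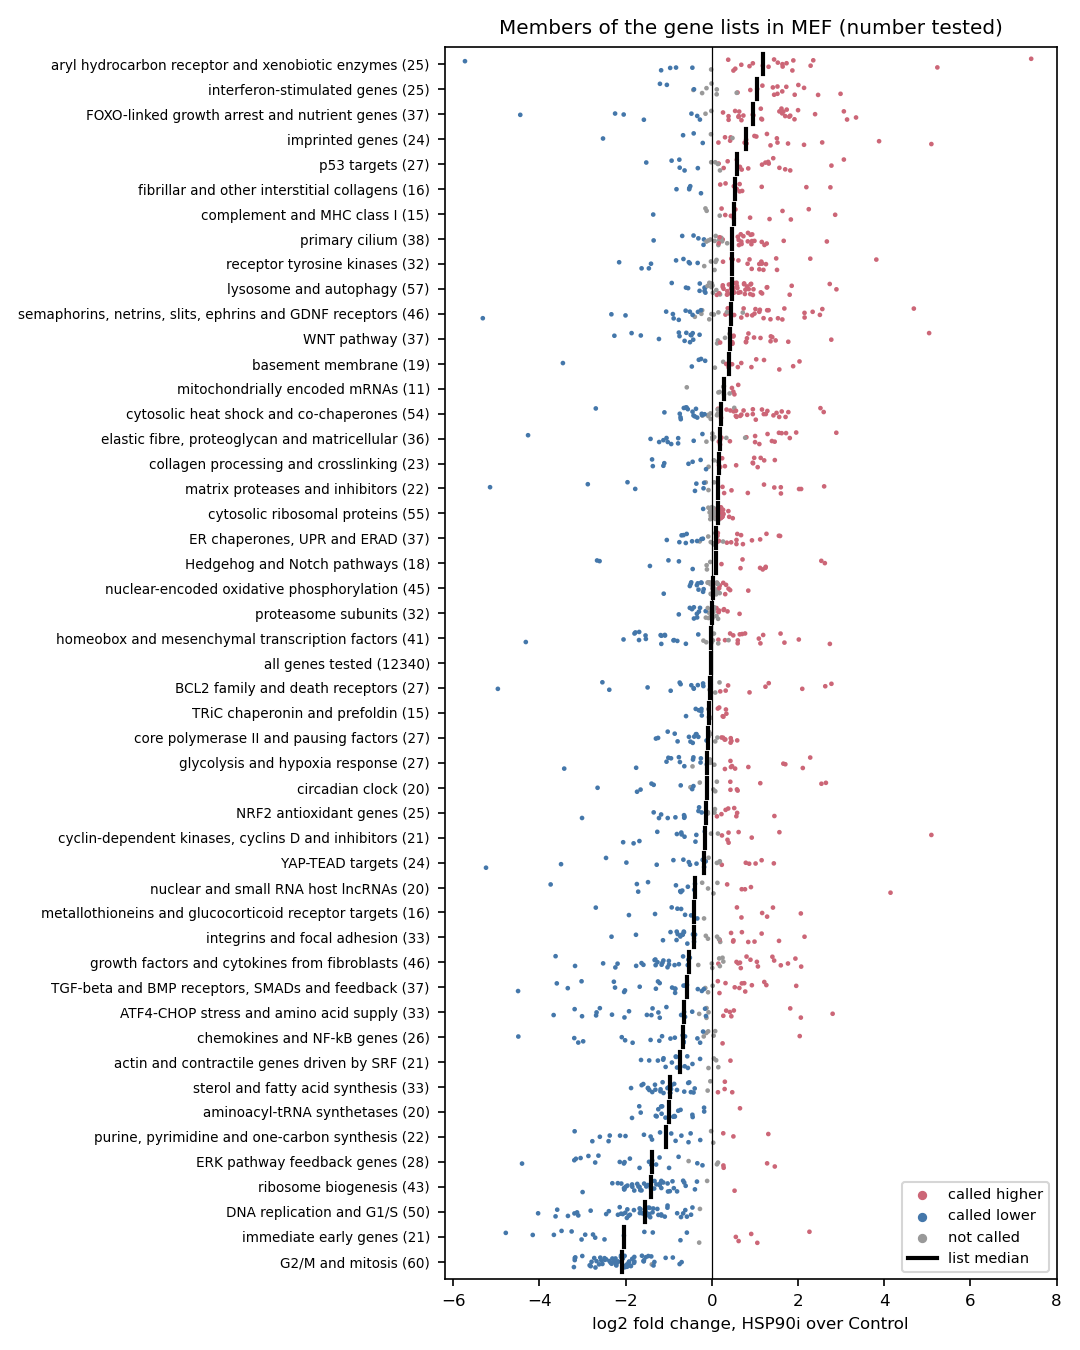
Each row is 1 gene list with its tested members as points at their log2 fold change of HSP90i over Control (red, called higher; blue, called lower; grey, not called) and the list median as a black bar, sorted by median, with lists of at least 10 tested members. Mitosis, immediate early, replication, ribosome biogenesis and ERK feedback genes lie at the lower end, and xenobiotic, interferon-stimulated and FOXO-linked genes at the upper end.

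Genes of amino acid supply and one-carbon metabolism mostly fell. Of 33 genes of the ATF4 pathway, which answers amino acid shortage, 21 fell, 15 by 2-fold or more, and 8 rose (median log2 fold change -0.64). Shmt2, which makes mitochondrial one-carbon units from serine, measured 437, 458 and 467 CPM in the Control libraries and 78.1, 73.7 and 73.2 CPM in the HSP90i libraries (log2 -2.60 ± 0.05). Mthfd2, the next enzyme, measured 125, 133 and 133 CPM in the Control libraries and 15.1, 15.1 and 12.6 CPM in the HSP90i libraries (log2 -3.18 ± 0.08). HSP90i libraries of both stood far below every Control library. The serine synthesis genes Phgdh, Psat1 and Psph, asparagine synthetase Asns and Atf4 itself fell (log2 fold changes -1.40 ± 0.05, -1.37 ± 0.05, -1.51 ± 0.08, -1.92 ± 0.05 and -1.21 ± 0.04). Ddit3 (CHOP), at 22.8 ± 1.52 and 20.7 ± 0.767 CPM, was not called, and Sesn2 and Ddit4, stress-induced inhibitors of mTOR, rose (log2 1.82 ± 0.05 and 2.07 ± 0.06). Cytosolic aminoacyl-tRNA synthetases fell in 19 of 20, with log2 fold changes from -1.85 (Vars) to -0.18 (Kars) and with the glutamine enzyme Qars the 1 that rose (0.65 ± 0.05), and their share of counts went from 0.460% ± 0.00968 to 0.248% ± 0.00410. With upper quartile factors, which move the median of all genes from -0.01 to 0.09, the calls for Sars (log2 -0.08) and Kars (log2 -0.07) were lost.

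Most genes of nucleotide and lipid synthesis fell as well. Of 22 purine, pyrimidine and folate genes, 17 fell and 3 rose, and the 3 are enzymes of the same routes: Paics, a step of purine synthesis, measured 393, 416 and 430.4 CPM in the Control libraries and 997, 1036 and 1039 CPM in the HSP90i libraries (log2 1.31 ± 0.05), and Cad and Ppat rose by 0.50 ± 0.05 and 0.27 ± 0.04. Gart and Ctps, other steps of purine and pyrimidine synthesis, fell (log2 fold changes -2.13 ± 0.07 and -2.37 ± 0.07). Sterol and fatty acid genes fell in 27 of 33, the elongase Elovl6 with a log2 fold change of -1.87 ± 0.09, and the 4 that rose included 3 desaturase genes, Scd1, Fads1 and Fads2 (0.30 ± 0.06, 0.14 ± 0.04 and 0.30 ± 0.05).

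Of 27 glycolysis and hypoxia genes, 13 fell and 10 rose. At 2 steps, hexokinase and enolase, 1 isoform fell and another rose. Hexokinase 2, the inducible form, measured 53.2, 52.5 and 53.2 CPM in the Control libraries and 5.56, 5.11 and 3.83 CPM in the HSP90i libraries (log2 -3.42 ± 0.11) and Hk1 164, 162 and 165 CPM in the Control libraries and 231, 225 and 224 CPM in the HSP90i libraries (log2 0.47 ± 0.04). Eno1 fell from 1425 ± 58.9 to 739.9 ± 11.2 CPM and the neuronal isoform Eno2 rose from 9.0 ± 0.263 to 43.9 ± 3.94 (log2 -0.95 ± 0.04 and 2.28 ± 0.09), and Aldoc rose (log2 2.11 ± 0.13) while Aldoa, at 629.6 ± 29.2 and 656 ± 16.9, was not called with TMM factors and called higher with upper quartile factors. The glucose transporter Slc2a1 rose from 97.5 ± 5.45 to 318 ± 22.6 CPM (log2 1.71 ± 0.07) and lactate dehydrogenase Ldha fell (log2 -1.05 ± 0.04). Nuclear genes of oxidative phosphorylation mostly did not pass the test, 9 of 45 higher and 11 lower, and of 11 mitochondrially encoded mRNAs 4 were higher and 0 lower, with the mitochondrial share of counts at 1.83% to 2.06% in Control and 2.18% to 3.13% in HSP90i, the highest in HSP90i 3.

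Lysosomal and autophagy genes rose in 40 of 57 and fell in 9, with a median log2 fold change of 0.46 and 8 past 2-fold. Of the 16 V-ATPase subunits tested, which acidify the lysosome, 14 rose. Atp6v1a measured 133, 138 and 139 CPM in the Control libraries and 463, 481 and 491 CPM in the HSP90i libraries (log2 1.81 ± 0.04). The acid glucosidase Gaa measured 131, 136 and 139.7 CPM in the Control libraries and 339, 339 and 304 CPM in the HSP90i libraries (log2 1.28 ± 0.06). Neither gene's groups overlapped. The cathepsins Ctsd and Ctsf rose by 0.75 ± 0.05 and 2.74 ± 0.09, the autophagy receptors Sqstm1 and Nbr1 by 0.95 ± 0.05 and 1.29 ± 0.06, and the kinase Ulk1 by 1.17 ± 0.07, while Atg5, part of the conjugation machinery, fell (log2 fold change -0.55 ± 0.08). Tfeb, the factor named for these genes, rose (0.90 ± 0.10), and its relative Mitf fell (-0.93 ± 0.16).

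Of 25 genes of the aryl hydrocarbon receptor, an HSP90 client, and of drug metabolism, 19 rose, 13 by 2-fold or more, and 5 fell. The standard targets of the receptor were found on both sides. Cyp1a1, the classical target, measured 1.67, 1.61 and 1.81 CPM in the Control libraries and 0, 0 and 0.0890 CPM in the HSP90i libraries, at most 1 count in any HSP90i library. Only its Control counts met the filter. Cyp1b1, Nqo1, Tiparp and Ahr itself fell (log2 fold changes -0.83 ± 0.05, -1.18 ± 0.05, -0.45 ± 0.09 and -0.97 ± 0.08). The target Aldh3a1, an aldehyde dehydrogenase, measured 1.19, 1.04 and 1.14 CPM in the Control libraries and 43.3, 43.0 and 43.2 CPM in the HSP90i libraries (log2 5.23 ± 0.09), and the partner Arnt rose by 0.68 ± 0.04 on the log2 scale. Glutathione transferases were higher in 9 of 12 tested, Gstm1 at 105, 106 and 114 CPM in the Control libraries and 367, 364 and 349.8 CPM in the HSP90i libraries (log2 1.73 ± 0.05), and these genes lie in families of near-identical copies that can exchange reads. NRF2-dependent genes fell in 13 and rose in 8 of 25, with the cystine carrier Slc7a11 lowest (-3.01 ± 0.21, log2) and Txnrd1 and Gclm also lower (-1.23 ± 0.04 and -1.02 ± 0.07), and Hmox1, heme oxygenase, higher (0.57 ± 0.08).

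The glucocorticoid receptor is another HSP90 client. In the list of this receptor, its targets and the metallothioneins, 6 of 16 rose and 9 fell. The receptor gene Nr3c1 fell (log2 -0.80 ± 0.09) and its target Fkbp5, itself an HSP90 cochaperone, measured 44.9, 43.8 and 46.9 CPM in the Control libraries and 6.14, 7.80 and 7.39 CPM in the HSP90i libraries (log2 -2.69 ± 0.10). Sgk1 and Tsc22d3 (GILZ), other standard targets, fell (log2 fold changes -1.32 ± 0.06 and -0.93 ± 0.10), whereas Ddit4, Dusp1, Klf9 and Per1, also targets, rose by 2.07 ± 0.06, 1.28 ± 0.08, 0.69 ± 0.10 and 0.58 ± 0.05 on the log2 scale. The metallothioneins Mt1 and Mt2, which bind zinc, rose from 116 ± 23.4 to 261 ± 42.8 and from 96.9 ± 11.1 to 259.7 ± 22.5 CPM (log2 1.17 ± 0.15 and 1.42 ± 0.09).

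The list of cytosolic chaperones, which also holds the mitochondrial Hspd1 and Hspe1, rose in 28 and fell in 17 of 54, with 13 and 2 past 2-fold. Its share of TMM-scaled counts went from 1.25% ± 0.0174 to 2.79% ± 0.0608. Hspb1 measured 78.8, 67.6 and 73.2 CPM in the Control libraries and 475, 448 and 407 CPM in the HSP90i libraries (log2 2.60 ± 0.08). Among HSP70 genes, 7 of 12 rose and 5 fell. The 5 were Hspa5 of the endoplasmic reticulum, Hspa9 of mitochondria, Hspa13, the ribosome-bound Hspa14 and the nucleotide exchange factor Hspa4, whose relative Hspa4l measured 143, 153 and 86.8 CPM in the Control libraries and 407, 356 and 419 CPM in the HSP90i libraries (log2 1.62 ± 0.18, against -0.74 ± 0.04 for Hspa4). J-domain partners of class A and B rose in 8 of 13, Dnaja1 and Dnajb2 by 1.02 ± 0.09 and 1.43 ± 0.07, and Dnaja2, at 232 ± 8.49 and 219.7 ± 4.97 CPM, was not called. Cochaperones that speed the HSP90 cycle, Ahsa1 and Ahsa2, rose by 0.95 ± 0.04 and 1.5 ± 0.07, and Stip1, which hands clients from HSP70 to HSP90, by 0.66 ± 0.04, but Ptges3 (p23) and Fkbp4 fell (log2 fold changes -0.61 ± 0.07 and -0.45 ± 0.05). The chaperonin pair Hspd1 and Hspe1 rose by 0.56 ± 0.06 and 1.16 ± 0.04. Of 15 subunits of the TRiC chaperonin and prefoldin, 6 rose and 6 fell, all by less than 2-fold, and of 32 proteasome subunits 8 rose and 10 fell, likewise.

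Genes of the endoplasmic reticulum divided. Hsp90b1 (GRP94), the HSP90 of this compartment, measured 1332, 1455 and 1022 CPM in the Control libraries and 3612, 3465 and 4121 CPM in the HSP90i libraries (log2 1.56 ± 0.13), and Hspa5 (BiP), usually induced beside it by unfolded protein, measured 651, 698 and 730.2 CPM in the Control libraries and 431, 438 and 451 CPM in the HSP90i libraries (log2 -0.66 ± 0.05). Every HSP90i library was above the Control range for the first and below it for the second. The disulfide isomerases Pdia3 and Pdia4 and calreticulin, Calr, rose by 1.12 ± 0.06, 0.72 ± 0.04 and 0.68 ± 0.04, the degradation ligase Syvn1 by 1.27 ± 0.05, and Herpud1, Manf and the sensor Ern1 fell (log2 fold changes -0.58 ± 0.05, -0.70 ± 0.05 and -1.04 ± 0.06). Xbp1 and the sensor Eif2ak3, at 74.7 ± 1.64 and 70.6 ± 2.61 and at 31.0 ± 2.84 and 31.9 ± 1.09 CPM, were not called, and of 37 genes 17 rose and 10 fell.

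Of 41 transcription factors of mesenchyme, 16 were higher and 18 lower, shares near those of all genes tested. By 2-fold or more, 7 of the 41 were higher and 13 lower, against 11.2% and 13.1% of all genes tested. The summed share of counts of this list went from 0.361% to 0.216%. Hmga2 alone held 1129 ± 85.2 CPM in Control and 56.8 ± 2.78 in HSP90i. The mesenchymal repressors Snai1 and Snai2, the skeletal factors Runx1, Runx2 and Sox9 and the limb factors Prrx1 and Prrx2 fell, with log2 fold changes between -1.77 (Snai2) and -0.80 (Prrx1). Sox4, Osr2 and Tbx2 rose (1.60 ± 0.04, 2.02 ± 0.09 and 2.74 ± 0.19), and Twist1 and Zeb2, at 60.9 ± 6.53 and 63.1 ± 9.04 and at 45.3 ± 10.8 and 46.2 ± 3.11 CPM, were not called. HOX genes, which record body position, were higher in 5 and lower in 7 of 18 (5 to 6 and 4 to 7 over the 4 scalings), with the largest change in Hoxa4 (-2.01 ± 0.13, log2).

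Of 20 genes of the circadian clock, 7 rose and 8 fell, shares near those of all genes tested. By 2-fold or more, 3 of the 20 rose and 5 fell, against 11.2% and 13.1% of all genes tested. Rora, an activating receptor, measured 11.2, 10.5 and 7.80 CPM in the Control libraries and 62.6, 60.7 and 64.9 CPM in the HSP90i libraries (log2 2.65 ± 0.11), while the opposing repressors Nr1d1 and Nr1d2 fell (log2 fold changes -1.35 ± 0.09 and -1.40 ± 0.14). Of the core genes, Per1, Per2 and Cry2 rose (0.58 ± 0.05, 1.12 ± 0.06 and 0.43 ± 0.10), Cry1 fell (-0.43 ± 0.10), Bhlhe41 rose and Bhlhe40 fell (2.54 ± 0.18 and -1.73 ± 0.10, log2), and Arntl (BMAL1), at 27.5 ± 1.28 and 28.3 ± 2.58 CPM, was not called.

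Genes of the primary cilium, the antenna that resting fibroblasts extend, rose in 22 and fell in 6 of 38 (median log2 fold change 0.48). Intraflagellar transport genes rose in 10 of 14 tested. Ift172 measured 32.5, 32.7 and 35.3 CPM in the Control libraries and 79.0, 77.7 and 77.3 CPM in the HSP90i libraries (log2 1.22 ± 0.05) and the transition zone gene Tctn2 17.5, 17.1 and 20.0 CPM in the Control libraries and 60.8, 55.5 and 56.5 CPM in the HSP90i libraries (log2 1.67 ± 0.08). The groups were apart in both. Ehd3, a membrane-shaping protein, rose (2.67 ± 0.08) and its relative Ehd1 fell (-1.35 ± 0.07).

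Noncoding transcripts changed in both directions. The nuclear lncRNA Miat measured 2.38, 2.94 and 2.85 CPM in the Control libraries and 50.8, 48.3 and 41.7 CPM in the HSP90i libraries (log2 4.15 ± 0.12), and Malat1, Neat1 and Tug1 rose by 0.91 ± 0.15, 0.69 ± 0.08 and 0.77 ± 0.10. Mir17hg, the host transcript of the miR-17 cluster, which promotes proliferation, measured 15.9, 16.2 and 16.7 CPM in the Control libraries and 1.40, 1.11 and 0.979 CPM in the HSP90i libraries (log2 -3.74 ± 0.14). The snoRNA hosts Snhg1, Snhg4 and Snhg5 fell (log2 fold changes -0.73 ± 0.07, -1.74 ± 0.10 and -1.48 ± 0.07), and Gas5, at 171 ± 22.4 and 146 ± 15.4 CPM, was not called, although it was called lower without Control 3 (log2 -0.28). Among less studied noncoding genes, A330076H08Rik and 2410006H16Rik rose (log2 1.75 ± 0.25 and 1.07 ± 0.06), and 4933404O12Rik, U90926 and Gm12603 fell (log2 -2.15 ± 0.12, -1.95 ± 0.12 and -1.81 ± 0.12). Of 276 tested genes typed as lncRNA, 95 rose and 73 fell.

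Some genes went from near absence to presence or the reverse. Of 12340 genes tested, 33 called genes had at most 3 counts in each Control library and 9 in each HSP90i library. Selenbp1, a selenium-binding methanethiol oxidase, measured 0, 0 and 0.0951 CPM in the Control libraries and 7.35, 9.29 and 6.76 CPM in the HSP90i libraries, and the potassium channel subunit Kcne4 0.0881, 0.189 and 0.190 CPM in the Control libraries and 7.97, 7.52 and 7.39 CPM in the HSP90i libraries. Genes this low in 1 group passed the filter on counts only through the other group, so their separation follows from the choice. The channel Kcnk13, the receptor-modifying protein Ramp1 and the actin bundler Espn were likewise near 0 in Control and reached 3.06 ± 0.167, 3.04 ± 0.106 and 3.10 ± 0.709 CPM in HSP90i. In the other direction Prelp, a matrix proteoglycan, went from 2.38, 1.80 and 3.04 CPM to 0.145, 0.186 and 0, and the membrane protein Dynap from 1.06, 1.23 and 1.43 to 0, 0 and 0.0890. Inmt, Clcn1 and Zbtbd6 met the same condition, with 20.9 ± 1.02 CPM in HSP90i for Inmt and 1.26 ± 0.216 and 1.64 ± 0.146 CPM in Control for the other two. The limit from the filter also holds for Wnt4, Mertk, Icam1, Mest, Cdkn1c and Cyp1a1, described above.

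The genes least moved, by the upper bound of the absolute log2 fold change, were Tulp4, Rpl10a, Irak1, Ppap2a, Lig3 and Psma6, among those of at least 64 CPM. Rpl10a, a ribosomal protein, measured 699, 681 and 718 CPM in the Control libraries and 677, 688 and 735 CPM in the HSP90i libraries (log2 0.00 ± 0.05) and Psma6, a proteasome subunit, 142, 142 and 143 CPM in the Control libraries and 139.6, 145 and 146 CPM in the HSP90i libraries (log2 0.01 ± 0.04). Their groups overlapped. Cytosolic ribosomal protein genes as a list were higher in 29 and lower in 1 of 55, at a median log2 fold change of only 0.15.

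Against HPC-7, whose dose was 50 nM, the MEF response differed for many genes, and line and dose changed together, so they cannot be told apart. Over 13720 genes, the log2 fold change in MEF was above that in HPC-7 for 3488 (25.4%) and below it for 2445 (17.8%) by the test of the interaction. The median difference over all genes was 0.11, and -0.11, -0.10 and -0.10 without HPC-7 Control 1, 2 and 3 in turn. The first count was 2152, 2182 and 2139 without these libraries in the same order. The direction that was the more frequent also depended on the scaling, with 2771 above and 3090 below under RLE factors, 2974 and 2912 under upper quartile factors, and 3020 and 2883 by library size alone. Of 10371 genes tested in both lines, 5912 were called in both, and 1137 of these (19.2%) changed in opposite directions with the difference itself called, 516 higher and 621 lower in MEF. The genes below were named for their changes in MEF, so a larger size in MEF than in HPC-7 is in part built into that choice. Hmga2 changed by log2 -4.31 ± 0.07 in MEF and -0.71 ± 0.11 in HPC-7 (difference -3.48 ± 0.14, adjusted p = 9.58e-10), Slc43a2 by 3.89 ± 0.09 and 1.01 ± 0.10 (difference 2.99 ± 0.15, adjusted p = 3.62e-09), and Slc25a25 by 2.82 ± 0.09 and -1.90 ± 0.19 (difference 4.83 ± 0.21, adjusted p = 1.54e-09). Tpm1 fell in MEF and rose in HPC-7 (0.48 ± 0.07, difference -2.0 ± 0.10), and Hsp90b1 rose in MEF and fell in HPC-7 (-0.76 ± 0.08, difference 2.44 ± 0.15). The replication and division genes Rrm2, Tk1 and Iqgap3 had log2 fold changes of -3.62 ± 0.08, -3.59 ± 0.06 and -3.46 ± 0.11 in MEF and -3.51 ± 0.55, -3.90 ± 0.46 and -3.83 ± 0.38 in HPC-7. Their differences, 0.01 ± 0.62, 0.44 ± 0.53 and 0.49 ± 0.45, were not called. This rested on the library HPC-7 HSP90i 2, without which the differences were 1.56, 1.66 and 1.40 and called. Trp53inp1 rose in both (3.06 ± 0.20 and 3.42 ± 0.16), with a difference of -0.24 ± 0.27, also not called.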

How the data were processed

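Per the labels, total RNA of MEF and HPC-7 cells was sequenced after treatment with NVP-AUY922 or in the Control group. The values are raw counts of reads per gene as deposited by the authors. The submitters' processing notes name Trim Galore, TopHat2 2.0.13, Picard, featureCounts and DESeq2 and the builds GRCm38 and mm10 beside human ones, with no role for each, and whether strand was counted is not stated there. Antisense and overlapping genes, and near-identical copies such as Hspa1a and Hspa1b, are therefore uncertain.

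Counts were tested in R 4.3.3 with edgeR 4.0.16 (filterByExpr, TMM factors, quasi-likelihood test, Benjamini-Hochberg over all 12340 genes, threshold 0.05), on the 6 MEF libraries with no covariate. CPM are scaled by TMM and not by length, so levels of different genes are not compared. ± is the standard error of a log2 fold change and the SD (n = 3) of a CPM or a share. The share of counts of a list is the sum of its TMM-scaled CPM as a percentage, with TMM factors from 0.977 to 1.014. The mitochondrial share is of raw counts. The difference between lines was the interaction term of 1 fit over 12 libraries, whose log2 fold changes are not identical to those of the separate fits. Promoter windows, 1 or more a gene, came from RefSeq (GRCm38.p6). On simulated counts with 200 genes changed, 81.3%, 95.8% and 100% of changes of 1.5, 2 and 4-fold were recovered in the MEF comparison, with 4.89% false calls. In the interaction 42.8%, 73.9% and 85.6% were recovered, with 2.21% false calls. In the MEF data 73.4% of tested genes were called, far from that setting, so these rates may not hold for them.

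The genes and the 49 lists (1644 genes, 4 others unmatched), the 10 marker lists and families of genes sharing a symbol stem were chosen with earlier results of these data known. Genes were named by these rules: the 12 largest called changes per direction with a mean of at least 64 CPM and no overlap, the 6 largest differences in CPM, up to 4 called members with the smallest p and 2 not called in each list, HSP90 genes and fibroblast markers, genes with at most 3 counts in each library of a group, the 6 least changed, and 4 noncoding genes per direction. Further list and family members were named after their values were seen. Some genes that these rules pick are not reported here. Alternatives were RLE, upper quartile and library size scaling, other count filters, a replicate block, DESeq2 1.42.0, limma-voom (limma 3.58.1), a test against 1.5-fold and each library left out in turn. Apart from HPC-7, HSP90i and Control groups of other cells in the series were not used here.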

Additional observations from a re-analysis of the deposited data

Results flagged for a closer look

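The response differed between MEF and HPC-7, by the test of the difference itself, for 3488 genes above and 2445 below the HPC-7 response (edgeR's quasi-likelihood interaction, adjusted p under 0.05). With RLE factors the counts were 2771 and 3090, so the excess of genes above depends on the scaling. Dose differed with the line, at 200 nM and 50 nM. Among the genes described, the MEF log2 fold change exceeded that in HPC-7 by 4.83 ± 0.21 for Slc25a25, 2.99 ± 0.15 for Slc43a2 and 2.44 ± 0.15 for Hsp90b1. It was below that in HPC-7 for Hmga2, with a difference of -3.48 ± 0.14, and for Tpm1, with -2.0 ± 0.10. Across all alternatives for the difference, these 5 kept their direction and call, over ranges of 4.55 to 5.09, 2.76 to 3.12, 2.19 to 2.52, -3.71 to -3.36 and -2.24 to -1.93 in the order given.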

How the results depend on the processing

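In the MEF comparison, the calls were 4337 higher and 4720 lower. With all 6 libraries, the counts ranged from 4067 with DESeq2 to 5037 with upper quartile factors for higher genes, and from 4072 with upper quartile factors to 4884 with no filter for lower genes, apart from the test against a fold of 1.5, which by construction keeps only larger changes and called 1831 higher and 2231 lower. Leaving out each library in turn gave 4003 to 4661 higher and 4304 to 4656 lower genes. With the replicate number as a block, 4208 were higher and 4588 lower. Deviations of same-numbered libraries correlated at 0.27, -0.22 and -0.25, and those of other pairs at -0.31 to 0.38. Deviations within a group of 3 sum to 0, so these values cannot decide whether the numbers pair the samples. Library 1 was the deepest in both groups, with 22872539 counts in Control and 20433541 in HSP90i. Shared handling by number was not tested. For the difference from HPC-7, leaving out each library gave 2139 to 3711 genes above and 2246 to 3343 below, and the block 3195 and 2263. Of 335 named genes called, 331 kept direction and call in each alternative that tested them, other than the test against 1.5-fold. The exceptions were Sars and Kars with upper quartile factors and Itga4 and Itga8, whose calls were lost with DESeq2 and without 4 libraries and 1 library in turn. The filter of at least 1 CPM in 3 libraries left 359 of the 361 named genes to test, so the rest have no call there. Of 26 named genes not called, Aldoa and Fgfr1 were called higher with upper quartile factors and Gas5 lower with limma-voom and without Control 3. Rrm2, Tk1 and Iqgap3 differed from HPC-7 without HPC-7 HSP90i 2. In the simulated interaction 42.8% of 1.5-fold differences were recovered, so a difference not called is no sign of equality.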
